A study of Mus musculus with 6 samples.

Results

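The cartilage gene set described here holds 10 genes of cartilage: the transcription factor genes *Sox5* and *Sox6*, the matrix genes *Acan*, *Hapln1*, *Matn1*, *Matn3*, *Matn4*, *Comp* and *Chad*, and the gene of a secreted protein, *Cytl1*. Members were found by their symbol among 24402 loci in the authors' table of embryonic lungs, and each of the 10 had 1 locus. The set was put together with the FPKM of this comparison known, and *Cytl1* was chosen by its large difference between the groups, so the values of the set are a description and support no test. RNA came from lungs of C57BL/6 mouse embryos at 12.5 days post coitus (*dpc*), from 3 wild-type embryos' samples (control) and 3 samples labelled Yap-flox/flox; Shh-Cre/+ (*Yap* mutant), as 6 libraries. The deposited value of a gene is 1 number per genotype in FPKM, which is fragments scaled by transcript length and by library size, so there was no spread between libraries, no depth per library and no test.

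In the mutants, Cre is produced from the *Shh* locus, so floxed *Yap* is lost in the epithelium and stays intact in the mesenchyme, from which cartilage is made. The Cre allele takes the place of 1 copy of *Shh*, and the controls are labelled only as wild type. Read as such they lack the Cre allele, so its effect and that of losing *Yap* cannot be told apart in these groups. Whether the controls carry floxed *Yap* without Cre is not stated in the paper. The labels do not say whether the trachea was left on the lungs.

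The rings that hold the trachea open are hyaline cartilage. They arise from ventral mesenchyme around the tracheal epithelium, and SHH from that epithelium is needed for them. The cells first condense and switch on SOX9, which with SOX5 and SOX6 drives the genes of the cartilage matrix. That matrix is a network of thin collagen fibrils filled with the proteoglycan aggrecan, and link protein, matrilins, COMP and chondroadherin tie its parts together.

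A locus is called expressed here when its mean over the 2 groups reached 1 FPKM and neither value was 0. Of the 10 genes, 5 were expressed in this sense, namely *Matn4*, *Hapln1*, *Sox5*, *Sox6* and *Cytl1*. Of the other members, 3 that mark mature cartilage were at or near 0. *Acan* had 0.116 FPKM in controls and 0.0446 FPKM in mutants, *Comp* had 0.0875 and 0.0795 FPKM, and *Matn1* was listed at 0 in both groups. Cartilage collagen genes outside the set were expressed, *Col2a1* at 35.1 FPKM in controls and 24.7 FPKM in mutants. The markers were thus mixed, and the set is called by its genes and not by a tissue.

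*Matn4* and *Cytl1* were the 2 members that were expressed and lower by at least 2-fold in *Yap* mutant lungs, and 0 expressed members were higher by as much. The sequences just before their annotated transcription starts are shown because these members carry the difference in the set. They are the 250 bases upstream, 5′ to 3′ on the strand of the gene, from RefSeq on GRCm38.p6. Matches to the motifs below would be in capitals, and neither window held one.
Cytl1, chr5:37735269-37735518, plus strand: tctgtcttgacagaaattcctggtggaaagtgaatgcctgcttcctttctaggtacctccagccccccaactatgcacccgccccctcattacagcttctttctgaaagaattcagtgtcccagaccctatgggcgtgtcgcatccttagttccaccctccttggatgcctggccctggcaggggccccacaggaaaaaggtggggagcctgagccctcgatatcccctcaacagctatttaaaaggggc
Matn4, chr2:164405161-164405410, minus strand: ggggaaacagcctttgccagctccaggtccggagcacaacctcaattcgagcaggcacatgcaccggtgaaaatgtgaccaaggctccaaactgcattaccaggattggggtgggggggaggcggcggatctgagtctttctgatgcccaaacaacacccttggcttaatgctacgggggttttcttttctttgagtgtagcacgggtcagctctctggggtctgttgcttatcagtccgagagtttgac

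The motifs were searched on both strands. GGAATG is the core bound by TEAD factors, the DNA-binding partners of YAP. SOX factors bind ACAAAG, and a variant of that site is ACAATG. GLI factors, which act in Hedgehog signalling, bind GACCACCCA. A common TATA box is TATAAA. Over 32851 RefSeq promoter windows of this length, GGAATG was in 12.6%, ACAAAG in 16.5%, ACAATG in 10.7%, GACCACCCA in 0.225% and TATAAA in 12.4%. RefSeq listed 15 windows for 9 of the members, and *Comp* was not among them. GGAATG was in 6 of the 15 windows, ACAAAG in 5, ACAATG in 3, GACCACCCA in 0 and TATAAA in 2. Of the 15 windows, 6 belong to *Sox6*, which has that many annotated starts. They hold all 5 of the windows with ACAAAG, 2 of the 3 with ACAATG, 2 of the 6 with GGAATG and 1 of the 2 with TATAAA, so the counts describe windows and not genes. *Matn4* has another annotated start at 164404818, with GGAATG on the opposite strand 29 to 24 bases before it. That window lies within the longer *Matn4* transcript and is not printed. Letters in a window say nothing of whether a factor binds there.

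*Sox5* and *Sox6* encode closely related SOX factors that act together with SOX9 in chondrocytes and are also made in many other cells. *Sox5* (chr6:143828425-144782029) had 4.23 FPKM in controls and 5.88 FPKM in mutants, which is a log2 ratio of mutant over control of 0.48. *Sox6* (chr7:115470890-116038877) had 3.47 and 4.21 FPKM, a log2 ratio of 0.28. These were the 2 members with the higher value in the mutants. Neither reached 1.5-fold. Among all 12701 expressed loci, 6.16% had a ratio as high as that of *Sox5* or higher, and 11.7% one as high as that of *Sox6*. Both genes are long, *Sox5* spanning 954 kilobases and *Sox6* 568 kilobases. *Sox9*, the partner of these factors, was named after its values were seen. It had 23.7 FPKM in controls and 20.4 FPKM in mutants (log2 ratio -0.22). *Sox9* also marks the distal lung epithelium, so its value joins mesenchyme and epithelium.

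*Acan* encodes aggrecan, and *Hapln1* encodes the link protein that fastens aggrecan to hyaluronan. *Hapln1* (chr13:89540436-89611832) was the member with the second highest value in both groups, at 10.9 FPKM in controls and 9.54 FPKM in mutants. Its log2 ratio was -0.20, and 12.7% of the 12701 expressed loci had a ratio as low or lower. *Acan* (chr7:79053483-79131148 in the table) had a log2 ratio of -1.38, but both of its values were close to 0. In the table its locus is merged with that of its neighbour *Hapln3*, a link protein gene on the opposite strand. The annotated genes share no exon bases (0), and *Hapln3* had its own values of 4.78 and 2.76 FPKM (log2 ratio -0.79). *Hapln1* lies beside *Vcan*, the gene of the proteoglycan versican, at a distance of 43.5 kilobases. *Vcan* had 62.5 FPKM in controls and 56.8 FPKM in mutants, a log2 ratio of -0.14.

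The matrilins are adaptor proteins that form filaments and link collagen fibrils to proteoglycans. The matrilin members differed more from each other in level than any of them did between the groups. *Matn1* (chr4:130944385-130955476), the matrilin most confined to cartilage, was listed at 0 in both groups. *Matn3* (chr12:8947929-8972028), also a cartilage matrilin, had 0.354 FPKM in controls and 0.115 FPKM in mutants, a log2 ratio of -1.62. *Matn4*, which is made in many tissues besides cartilage, was the highest of the 10 members in both groups. *Matn4* had 22.8 FPKM in controls and 10.1 FPKM in mutants, so that the mutant value was 44.1% of the control value (log2 ratio -1.18). Of the 12701 expressed loci, 115 (0.905%) had a ratio as low or lower. The remaining matrilin gene, *Matn2*, is no member and had 5.96 and 6.43 FPKM (log2 ratio 0.11). The table's *Matn4* locus, chr2:164389393-164415448, reaches past the gene and takes in *Rbpjl* on the opposite strand. The exons of these genes share 149 bases, which is 2.88% of the exon bases of *Matn4*. *Rbpjl* itself was low, at 0.6998 FPKM in controls and 0.198 FPKM in mutants. Whether the authors' counting used the strand is not given in the sources used here, and without strand the reads of shared exon bases cannot be told apart.

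*Comp* and *Chad* encode a thrombospondin family protein and a leucine-rich repeat protein, both of which bind collagen. *Comp* (chr8:70373548-70382066) was near 0 in both groups, and its log2 ratio was -0.14. *Chad* had 0.499 FPKM in controls and 0.342 FPKM in mutants, a log2 ratio of -0.54. *Chad* (chr11:94565047-94569127, plus strand) lies inside *Acsf2*, which is on the minus strand, with 0 shared exon bases, and the table gives both genes the locus chr11:94557102-94601985. *Acsf2* had 19.2 and 19.4 FPKM. With the use of strand unknown, the low value of *Chad* is uncertain.

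*Cytl1* encodes a small secreted protein made by chondrocytes and first found in blood progenitor cells. *Cytl1* (chr5:37735519-37739820) had 3.17 FPKM in controls and 0.362 FPKM in mutants. The mutant value was 11.4% of the control value, 8.76-fold lower, with a log2 ratio of -3.13. Of the 12701 expressed loci, 9 (0.0709%) had a ratio as low or lower. *Cytl1* was chosen for this difference, so that share is a description only. The gene counted as expressed through its control value alone, and its longest coding transcript in GENCODE is 974 bases in 4 exons, the shortest of the members. A short transcript gives fewer fragments at the same FPKM. Adding 1 FPKM to both values, which draws low genes together, brings the log2 ratio to -1.61. The nearest expressed loci on either side differed in other ways. *Stk32b*, 18.4 kilobases away, had 1.497 and 1.62 FPKM (log2 ratio 0.11). *Msx1*, 80.7 kilobases away on the other side, had 0.467 FPKM in controls and 1.68 FPKM in mutants, a log2 ratio of 1.85 and so in the opposite direction to *Cytl1*.

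**Figure D1:**
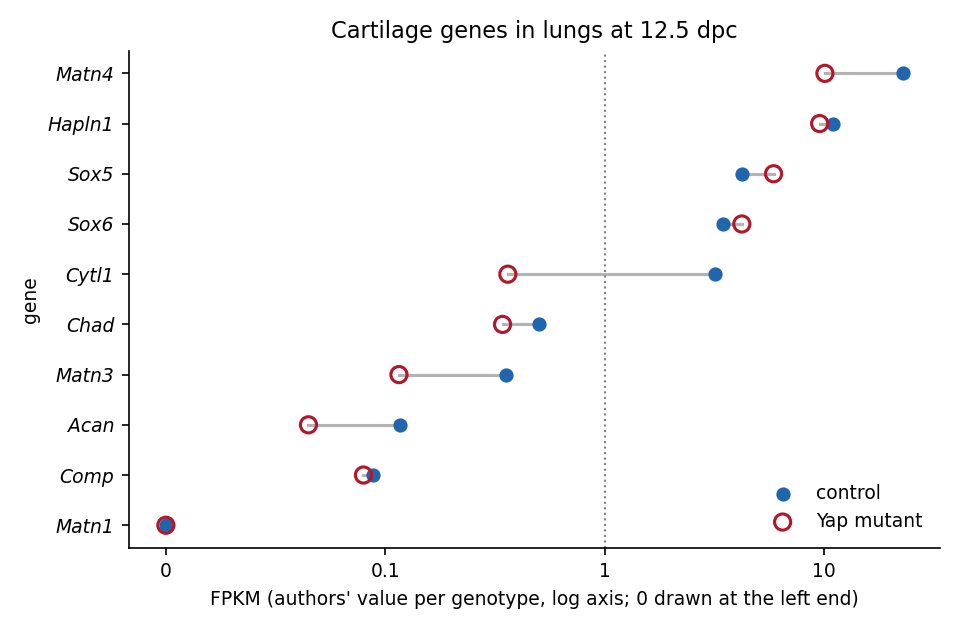
FPKM of the 10 cartilage genes on a log axis, with 1 filled point for control and 1 open point for *Yap* mutant lungs, and 0 drawn at the left end. The dotted line is 1 FPKM. *Cytl1* has the widest gap (3.17 against 0.362 FPKM), *Sox5* and *Sox6* have the open point to the right, and *Acan*, *Comp*, *Matn1*, *Matn3* and *Chad* lie left of the line in both groups.

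Read across the set, 7 members had a lower value in the mutants, 2 a higher one and 1 was at 0 in both. Of the 7, *Acan*, *Matn3*, *Comp* and *Chad* had a mean under 1 FPKM. Among the 5 expressed members 3 were lower and 2 higher, while 51.8% of all expressed loci were lower. The order of the 10 members by level was the same in both groups except that *Acan* and *Comp*, both near 0, changed places. Of the 5 expressed members, 2 were lower by at least 2-fold, beside 1.34% of all expressed loci past the same rule, and 0 were higher by as much, beside 2.17%. *Cytl1* was chosen for its difference, so these counts are not read against that background. Differences of this size were more frequent among low loci. At means from 1 to 5 FPKM, where *Cytl1* lies, 3.48% of loci were lower by at least 2-fold and 5.75% were higher. Below 1 FPKM, with both values above 0, the shares were 11.4% and 17.8%. The ratios of *Acan* and *Matn3* belong to that range. In whole lungs, fewer cells that make a gene and less of its RNA per cell cannot be told apart.

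**Figure D2:**
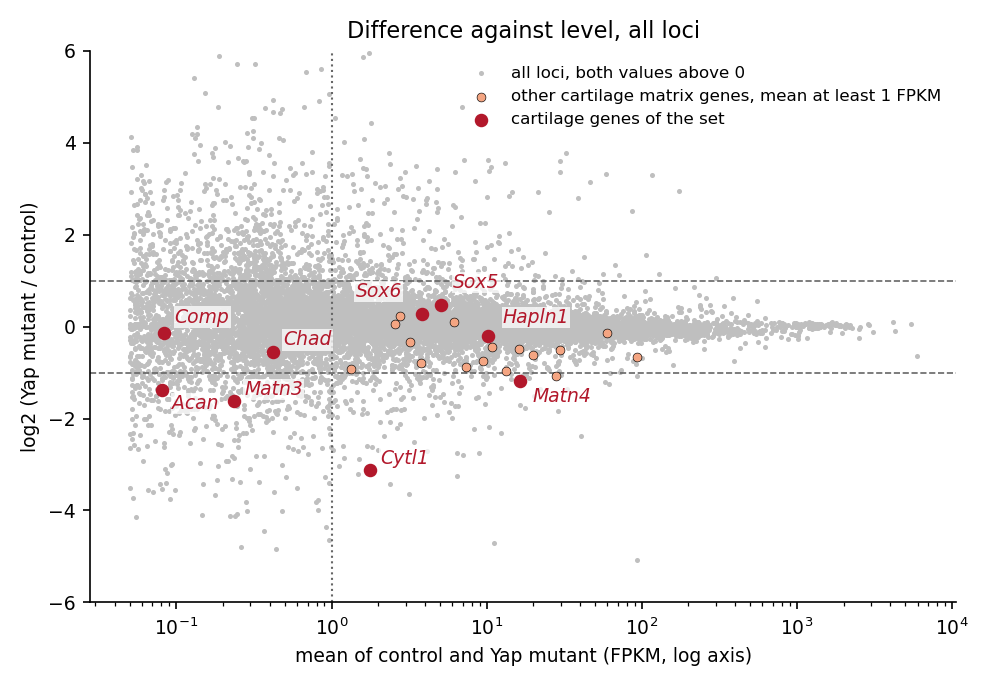
Log2 ratio of *Yap* mutant over control (vertical axis) against the mean FPKM of the groups (horizontal log axis) for loci whose mean reached 0.05 FPKM with both values above 0, with 11 loci beyond the axis. Dashed lines mark 2-fold and the dotted line 1 FPKM. The grey cloud widens below 1 FPKM, where *Acan* and *Matn3* lie, while *Matn4* (-1.18) lies below a narrow part of the cloud and *Cytl1* (-3.13) far below its own part.

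Other structural genes of cartilage matrix were read from a list of 28 symbols, of which 26 had a locus. Of its 16 expressed loci, 13 had the lower and 3 the higher value in the mutants, and the median log2 ratio was -0.56. Over all 12701 expressed loci, 51.8% were lower and the median was -0.01. Lower by at least 2-fold was 1 of the 16, beside 1.34% of all expressed loci. This was *Fmod*, which encodes fibromodulin, a small proteoglycan on collagen fibrils. *Fmod* had 37.9 FPKM in controls and 17.8 FPKM in mutants (log2 ratio -1.09). At 1.5-fold, 8 were lower and 0 were higher, beside 3.42% and 4.54% of all expressed loci. Of the 8, *Otor* (1.75 FPKM in controls and 0.927 FPKM in mutants) counted as expressed through its control value alone. Relative to the median of a list of lung mesenchyme genes, 3 were lower by at least 2-fold.

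The collagens of cartilage fibrils differed in the same direction and by less than 2-fold. *Col2a1*, the main fibrillar collagen gene of cartilage, had 35.1 FPKM in controls and 24.7 FPKM in mutants (log2 ratio -0.51). The genes that follow are named after their values were seen. *Col9a1*, *Col9a2* and *Col9a3*, which encode the chains of a collagen on the surface of those fibrils, had log2 ratios of -0.89, -0.49 and -0.75. For *Col11a1* and *Col11a2*, of the collagen in the fibril core, the log2 ratios were -0.44 and -0.33. *Col27a1*, another fibrillar collagen gene, had 17.5 and 8.99 FPKM, a log2 ratio of -0.96. All 7 collagen genes were thus lower in the mutants while the 2 SOX members were higher. The highest values of the list were those of *Thbs1*, a thrombospondin gene found in many tissues, with 114.9 and 72.4 FPKM, and of *Vcan*, given above.

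Of the 10 matrix loci with a mean under 1 FPKM, 6 were lower by at least 2-fold: *Epyc*, *Lect1*, *Clec3a*, *Chadl*, *Susd5* and *Crtac1*. They are named after their values were seen, and they lie where 11.4% of loci differ as much in that direction. *Lect1*, which encodes chondromodulin, a secreted inhibitor of blood vessel growth in cartilage, had 0.514 FPKM in controls and 0.160 FPKM in mutants. *Epyc*, of a small proteoglycan of growth cartilage, had 1.06 and 0.489 FPKM. *Ucma*, a marker of maturing chondrocytes, was listed at 0 in both groups. The rest were *Cilp*, which was lower (log2 ratio -0.54), and *Prg4* and *Cilp2*, which were higher (0.06 and 0.43).

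**Figure D3:**
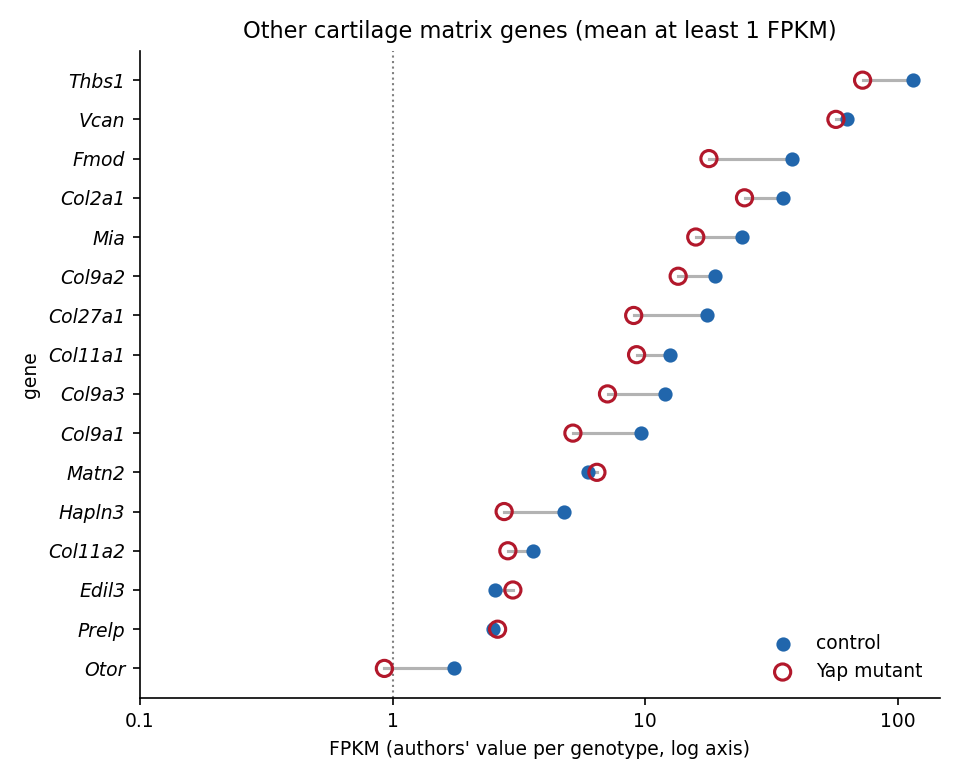
FPKM of the 16 other expressed cartilage matrix genes, on a log axis, with a filled point for control and an open point for *Yap* mutant lungs. The open point lies to the left for 13 genes and to the right for *Matn2*, *Edil3* and *Prelp*.

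Enzymes and transporters that build the sugar chains of proteoglycans showed no shared direction. All 20 of the list were expressed, 9 were lower and 11 higher, 0 reached 2-fold in either direction, and the median log2 ratio was 0.02. The highest were *Ugdh*, which makes a sugar precursor (52.2 and 51.5 FPKM), *Papss1*, which makes the sulfate donor (44.1 and 44.5 FPKM), and *Chsy1*, a chondroitin synthase gene (28.5 and 29.1 FPKM). The genes of chondrocyte hypertrophy and bone were mostly near 0. Of 12 loci, 4 were expressed, 1 lower and 3 higher, with 0 past 2-fold and a median log2 ratio of 0.47. *Mef2c*, a transcription factor gene also used in blood vessels and muscle, led them at 9.17 and 13.1 FPKM, ahead of *Alpl*, an alkaline phosphatase gene (2.95 and 4.24 FPKM), and *Phex* (1.78 and 1.71 FPKM). *Col10a1*, the collagen gene of hypertrophic cartilage, had 0 FPKM in controls and 0.00589 FPKM in mutants.

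Regulators of chondrogenesis differed in both directions. Of 19 expressed loci, 13 were lower and 6 higher, with a median log2 ratio of -0.22, and 2 were lower and 5 higher by at least 2-fold, beside 1.34% and 2.17% of all expressed loci. The lower ones were *Gdf5* and *Fgfr3*. *Gdf5*, a BMP family ligand that promotes cartilage condensation, had 2.04 FPKM in controls and 0.338 FPKM in mutants (log2 ratio -2.59). *Fgfr3*, an FGF receptor gene that restrains the growth of chondrocytes, had 9.77 and 3.57 FPKM (log2 ratio -1.45). Like *Cytl1*, *Gdf5* counted as expressed through its control value alone, and of the higher regulators *Msx1* and *Runx2* did so through their mutant value alone.

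The 5 regulators that were higher by at least 2-fold are factors of early mesenchyme and of bone, and a ligand. *Pthlh*, which encodes a secreted peptide that delays chondrocyte maturation and is made by lung epithelium, had 3.37 FPKM in controls and 16.1 FPKM in mutants (log2 ratio 2.26). *Prrx1*, a homeobox gene of skeletal mesenchyme, had 12.9 and 28.2 FPKM (log2 ratio 1.13). *Msx2*, a homeobox gene and BMP target, had 1.91 and 4.04 FPKM (log2 ratio 1.08), and *Msx1* is given above. *Runx2*, the bone and hypertrophic cartilage factor gene, had 0.920 and 2.27 FPKM (log2 ratio 1.31). With 1 FPKM added to both values, the count of higher regulators was 2 in place of 5. The most highly expressed regulators were *Cbfb* at 75.9 and 71.9 FPKM, *Pth1r*, the receptor gene for that peptide, at 58.4 and 38.0 FPKM (log2 ratio -0.62), and *Zfp219* at 32.7 and 26.4 FPKM.

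Signals and factors that pattern the trachea were lower for part of the list. Of 17 expressed loci, 10 were lower and 7 higher, with a median log2 ratio of -0.28, and 4 were lower and 1 higher by at least 2-fold, beside the same 1.34% and 2.17%. *Shh*, the epithelial ligand, had 15.6 FPKM in controls and 2.31 FPKM in mutants (log2 ratio -2.76), in mutants that carry Cre at 1 *Shh* copy. Its receptor and target gene *Ptch1* had 44.8 and 12.6 FPKM (log2 ratio -1.83), and *Gli1*, a target and effector gene of the same pathway, had 36.7 and 18.01 FPKM (log2 ratio -1.03). *Foxf1*, a mesenchymal factor gene that responds to SHH, had 83.5 and 41.6 FPKM (log2 ratio -1.005), and relative to the median of all loci it falls short of 2-fold, which leaves 3 lower. *Fgf10*, the mesenchymal ligand of lung budding, had 10.4 and 26.6 FPKM (log2 ratio 1.35) and was the 1 higher locus. *Tbx4*, a mesenchymal factor gene needed for tracheal cartilage, had 54.3 and 59.2 FPKM (log2 ratio 0.12), and *Wls*, which encodes the WNT secretion protein, had 64.2 and 61.5 FPKM. The patterning list and the cartilage members each held both directions, and *Sox9* was lower while *Sox5* and *Sox6* were higher. Since 51.8% of all expressed loci were lower, a shared direction does not link genes of these lists. With 1 value per genotype no likeness of pattern can be measured, and a part of the patterning genes in the cartilage values was not tested.

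**Figure D4:**
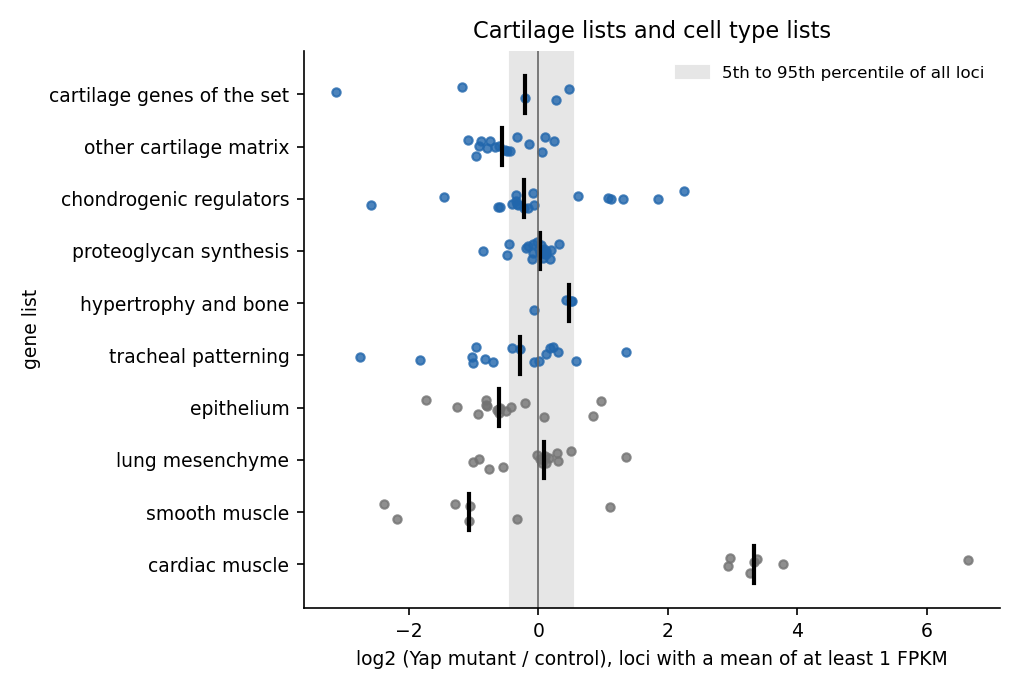
Log2 ratio of *Yap* mutant over control for the expressed loci of 10 gene lists, where each point is a locus, each black bar the median of its list, and the grey band holds the 5th to 95th percentile of all expressed loci (-0.44 to 0.54). Points of the other cartilage matrix list lie mostly left of 0 (median -0.56), those of proteoglycan synthesis lie around 0 (median 0.02), and those of cardiac muscle lie far to the right (median 3.33).

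The tissue around the cartilage genes differed between the groups as well. *Yap1* had 76.1 FPKM in controls and 65.6 FPKM in mutants over its whole locus, mesenchyme included, which does not by itself show the deletion. Epithelial genes were lower for 13 of 16 loci (median log2 ratio -0.60, 2 past 2-fold lower), and lung mesenchyme genes were lower for 5 and higher for 9 of 14 loci (median 0.08). These 14 loci hold 13 genes, since *Tcf21* has separate entries of 57.4 and 39.2 FPKM and of 3.70 and 1.96 FPKM, both lower. Smooth muscle genes were lower for 6 of 7 loci, with 5 past 2-fold lower and 1 higher (median -1.06). Cardiac muscle genes were higher past 2-fold for 7 of 7 loci (median 3.33), and their summed level was 61.7 FPKM in controls and 584.5 FPKM in mutants. Of these, *Nppa* and *Myh7* counted as expressed through their mutant value alone. Past 2-fold over all expressed loci, 1.34% were lower and 2.17% higher. Of 4 Y-linked genes, the highest control value was 0.0163 FPKM (*Ddx3y*), and the lowest *Yap* mutant value was 4.61 FPKM (*Kdm5d*). The part that heart tissue, the sex of the embryos and the epithelial, smooth muscle and mesenchymal shifts have in the values of the cartilage genes was not tested, and with 1 value per genotype these cannot be told apart.

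Lists of skeletal muscle and sclerotome genes were read as well, because body wall tissue also holds cartilage. Of 11 skeletal muscle genes 1, *Myog*, was expressed (1.51 and 0.826 FPKM, log2 ratio -0.87), and the list summed to 3.77 FPKM in controls and 3.03 FPKM in mutants. Below a mean of 1 FPKM, *Myod1*, *Myh3*, *Myf5*, *Chrnd*, *Chrna1* and *Pax7* were lower in the mutants, and *Myh8*, *Pax3*, *Ttn* and *Myf6* were higher. The largest gain was that of *Ttn*, with 0.0358 FPKM in controls and 0.539 FPKM in mutants, and it adds to the mutant sum. The cardiac muscle genes given above were higher in the mutants too, and the part of heart tissue in the *Ttn* value was not tested. The sclerotome genes *Pax1*, *Pax9* and *Uncx*, which mark the source of ribs and vertebrae, were at or below 0.193 FPKM in both groups. The list's other 4 loci were expressed and higher, with 3 past 2-fold (median 1.27), beside 2.17% of all expressed loci. Of these, *Tbx18* is also a gene of the outer layer of the heart.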

How the data were processed

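Lungs of 3 control and 3 *Yap* mutant embryos' samples were sequenced, and the authors' deposited tables, 1 of all 24402 loci and 1 of 2395 loci they list as changed, hold 1 FPKM value per locus and genotype. The submitters' processing notes name TopHat, Cuffdiff and mm10, with no versions, and the paper names stranded libraries. The unit FPKM was read from the Cuffdiff layout. The tables' fold changes and p-values are the authors' own comparison and were not used. No column belonged to other samples.

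Log2 ratios of *Yap* mutant over control were computed here with no pseudocount. A locus was counted as lower or higher at 2-fold or more when its mean over the groups reached 1 FPKM and both values were above 0 (expressed), and the share of all such loci is the background. With 1 value per genotype no test could be run. The members and lists were chosen with earlier results of these data known. Lists covered cartilage matrix, chondrogenic regulators, proteoglycan synthesis, hypertrophy and bone, tracheal patterning, and tendon, sclerotome, skeletal, cardiac and smooth muscle, epithelium, lung mesenchyme, endothelium, erythroid, neural and oesophagus or pharynx genes. Named are all members and, of the cartilage lists, the loci past 2-fold and the 3 with the highest mean. Others were named after their values were seen. Of the remaining lists, counts and medians are given, with fewer genes named.

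Locus starts count from 0 and were raised by 1. All 10 member loci overlapped the RefSeq gene of that symbol on GRCm38, the same build as mm10. Exons came from GENCODE M21. Python 3.11.15, numpy 2.4.6, pandas 2.3.3 and matplotlib 3.10.9 were used, and the scripts were tested on simulated data. Alternatives were pseudocounts of 0.1 and 1 FPKM, no minimum mean or one of 5 FPKM, a 1.5-fold rule, ratios relative to the median of all loci or of lung mesenchyme, and the values of the table of changed loci.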

Additional observations from a re-analysis of the deposited data

How the results depend on the processing

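The values of single cartilage genes kept their direction in all 43 recomputed cases, and 36 of these lay within 0.3 of the reported log2 ratio. The settings could not have reversed a direction. They added the same amount to both values, shifted all ratios by the same small constant, or used the same values again. The kept direction is thus no evidence of stability. Low genes moved with the pseudocount. With 0.1 FPKM added, *Cytl1*, *Acan* and *Matn3* had log2 ratios of -2.82, -0.58 and -1.08, and with 1 FPKM added these were -1.61, -0.10 and -0.28, while *Chad* had -0.16. The count of members lower by at least 2-fold, 2 as reported, was 4 with no minimum mean (*Acan* and *Matn3* join) and 1 (*Matn4*) at a mean of at least 5 FPKM. The matrix list, with 1 lower, had 7 with no minimum mean, 8 at 1.5-fold and 3 relative to the lung mesenchyme median. The regulators, with 2 lower and 5 higher, had 1 lower and 2 higher at a mean of at least 5 FPKM, 2 higher with 1 FPKM added and 4 lower at 1.5-fold. The patterning list, with 4 lower, had 2 with 1 FPKM added and 7 at 1.5-fold. Proteoglycan synthesis had 1 lower at 1.5-fold, and hypertrophy and bone 1 higher with no minimum mean. The shifts with another minimum mean or fold rule follow from how many loci the rule admits. The table of changed loci lists 4 of the members with the same values, and scaling to the median of all loci took the lower patterning loci from 4 to 3 (*Foxf1* is lost) and changed no other count of the cartilage lists. No paired analysis was possible because the tables give 1 value per genotype, and leaving out a library was not possible for the same reason. Depth per library is unknown, so the precision of values near 0 is unknown too.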

Other observations

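The tendon and perichondrium list, which shares matrix genes with cartilage, held both directions. Of 8 expressed loci, 2 were lower and 6 higher (median log2 ratio 0.21). Higher by at least 2-fold was 1 of them, beside 2.17% of all expressed loci. That locus was *Thbs4*, a thrombospondin gene related to *Comp*, with 1.17 FPKM in controls and 2.98 FPKM in mutants (log2 ratio 1.35). The most highly expressed were *Dcn*, *Lum* and *Postn*, with log2 ratios of 0.22, 0.19 and 0.75. *Scx*, *Mkx* and *Tnmd* had the lower value in the mutants and were named after their values were seen. On the same list, *Egr1* was higher, with 3.45 FPKM in controls and 4.61 FPKM in mutants. So was *Kera*, at 0.219 and 0.285 FPKM. *Scx*, a tendon transcription factor gene, had 8.26 FPKM in controls and 6.94 FPKM in mutants (log2 ratio -0.25). *Mkx*, another such factor gene, had 1.21 and 0.741 FPKM, and *Tnmd*, the tendon relative of *Lect1*, had 1.54 and 0.0977 FPKM, both with a mean under 1 FPKM.

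The other lists held both ways of difference. Endothelial genes were lower for 2 and higher for 6 of 8 loci, with 0 past 2-fold (median 0.16). Erythroid genes were higher for 8 of 8 loci, with 1 past 2-fold (median 0.15), beside 2.17% of all expressed loci. Of 6 expressed neural loci, 5 were lower and 0 reached 2-fold (median -0.55, beside -0.56 for the cartilage matrix list). In the oesophagus and pharynx list 2 of 9 loci were expressed. *Tbx1*, a pharyngeal factor gene that the lung epithelium also makes, had 11.7 FPKM in controls and 1.23 FPKM in mutants (log2 ratio -3.25), and *Hhex* had 7.08 and 10.3 FPKM.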
